A study of Homo sapiens with 22 samples.

Results

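The comparison described here set HEK293 clones that make B-domain deleted factor VIII against a line titled HEK 28 whose genotype label reads full length. HEK293 is an established human embryonic kidney line. Libraries were chosen by their titles alone: the 12 titled bdd or oldbdd, from BDD clones 1, 2, 7, 12, 13 and 27, and the 2 titled HEK 28, which makes 14 of the 22 libraries of the series. The other 8 libraries came from 4 clones labelled FL, which carry full-length factor VIII (numbers 4, 7, 9 and 10), and served here to show which differences were shared. Each clone or line has a library a and a library b. All cells grew untreated to about 70% confluency in 6-well plates, and total RNA was sequenced. The cell line label reads HEK28 for all 22 libraries, so the labels do not say how the line titled HEK 28 relates to the clones. Neither the promoter that drives factor VIII nor the meaning of oldbdd (clone 2) is given. HEK 28 is 1 line, so it has no spread between clones of its own, and it was assumed to vary like the other clones.

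Factor VIII is a clotting cofactor that is made with a large, heavily glycosylated B domain, which is cut away on the way to the active protein and which therapeutic forms often lack. It folds in the endoplasmic reticulum (ER) and leaves with the cargo receptor made of LMAN1 and MCFD2. A pair of gene programs bear on the result below: the immediate early genes, transcription factors such as FOS and EGR1 that are switched on within minutes of growth signals or stress without new protein synthesis, and the housekeeping machinery of respiration, the cell cycle and lipid synthesis. FOSB dimerizes with JUN proteins to form AP-1, and EGR1 is a zinc finger factor induced through ERK and SRF.

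The promoters of 4 genes from the list of immediate early genes that stood higher in the BDD clones are shown first. They are examples whose promoters hold known control elements. They are not the 4 widest gaps: EGR2, with a wider gap than FOS, has neither element in its promoter. The sequences run 5′ to 3′ in the 250 bases before each RefSeq start on GRCh38.p14, stopping before any base that GENCODE places inside the gene. Capitals mark the core of the cAMP response element (CRE), TGACG or its reverse complement CGTCA, and the CArG box, the site SRF reads.
FOSB promoter, chr19:45467746-45467994, + strand: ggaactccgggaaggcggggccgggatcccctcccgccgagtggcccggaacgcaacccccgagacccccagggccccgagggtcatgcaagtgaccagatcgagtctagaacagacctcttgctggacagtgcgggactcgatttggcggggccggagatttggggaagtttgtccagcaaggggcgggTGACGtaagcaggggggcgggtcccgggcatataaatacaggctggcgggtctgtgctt
FOS promoter, chr14:75278578-75278773, + strand: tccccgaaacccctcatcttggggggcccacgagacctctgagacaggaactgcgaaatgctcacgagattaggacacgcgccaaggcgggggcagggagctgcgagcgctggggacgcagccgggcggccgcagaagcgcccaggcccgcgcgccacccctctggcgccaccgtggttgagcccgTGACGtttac
EGR1 promoter, chr5:138465229-138465478, + strand: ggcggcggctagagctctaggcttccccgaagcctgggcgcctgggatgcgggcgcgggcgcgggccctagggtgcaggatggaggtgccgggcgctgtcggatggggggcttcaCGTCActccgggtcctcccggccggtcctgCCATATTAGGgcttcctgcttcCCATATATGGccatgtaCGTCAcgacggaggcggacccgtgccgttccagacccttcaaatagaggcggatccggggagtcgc
JUND promoter, chr19:18281623-18281872, - strand: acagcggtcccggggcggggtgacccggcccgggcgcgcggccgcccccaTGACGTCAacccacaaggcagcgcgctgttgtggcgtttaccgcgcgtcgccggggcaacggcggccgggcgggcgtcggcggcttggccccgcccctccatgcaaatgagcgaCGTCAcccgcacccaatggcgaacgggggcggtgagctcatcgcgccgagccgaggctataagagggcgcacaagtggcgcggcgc

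The CRE core lay 60 bases before the start in FOSB and 64 bases before it in FOS. EGR1 had CRE cores at 135 and 66 bases and CArG boxes at 105 and 83 bases. JUND held a full CRE, TGACGTCA, which contains 2 overlapping cores, at 200 bases, and another core at 86 bases. Over all 27305 RefSeq promoters of the same length, searched on both strands, 21.7% held a CRE core, 1.77% a full CRE and 1.14% a CArG box. Of 24 immediate early genes in the list used here, 18 had a RefSeq promoter, and the CRE core was found in 12 of them, 7 of the 9 called higher in BDD and 5 of the 9 others, and the CArG box in 2. A match of letters is a description of these sequences and shows no binding of a factor.

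Values below are log2 CPM, read counts scaled to the size of each library, and differences are BDD minus HEK 28 on the log2 scale unless another comparison is named. They include a prior of about 2 reads in each library and so understate changes of low genes. Recovered depth ran from 4951081 to 6197084 reads per library over all 22, with 5718736 and 5671671 in the HEK 28 libraries a and b. As deviations from the mean of all 22 libraries, libraries a and b of a clone correlated across genes, which are not independent replicates, by 0.0026 in BDD clone 2 and 0.186 in clone 12, and by 0.327 to 0.547 in the other clones and HEK 28. Without these 2 clones limma called 591 genes, 306 higher and 285 lower, and the main counts without them stand beside the results. The HEK293 markers NEFM, NEFL, INA, KRT8, KRT18, VIM, CDH2 and LHX1 were detected in every library. PAX2, also a HEK293 marker, was low, with 14 and 12 reads in HEK 28 and none in 1 BDD library. PAX8 was not among the measured genes. Of markers of other cell types, 2 of 10 endothelial, 4 of 12 leukocyte and 0 of 14 hepatocyte genes were measured, and none was called between BDD and HEK 28 by limma. FLT1, an endothelial receptor, ran from 3.84 to 5.00 over all libraries.

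Between the BDD clones and HEK 28, 3134 of 15797 genes (19.8%) had both HEK 28 libraries beyond the range of all 12 BDD libraries. BDD was the higher side for 1468 (9.29%) and the lower side for 1666 (10.5%). The fit with limma across all 11 clones called 749 genes (4.74%) at an adjusted p under 0.05, 388 higher in BDD (2.46%) and 361 lower (2.29%). The test uses the same values as the range rule and is not independent of it. Of the genes beyond the range, 740 were at least 2-fold higher and 404 at least 2-fold lower in BDD. Without BDD clone 7 the test called 460 genes, with 251 higher and 209 lower, and without FL clone 9 it called 229 lower. Scaling by autosomal reads off chromosome 7 gave 399 higher and 233 lower, and a fit of only BDD and HEK 28 clones gave 300 and 154. Taking out a spline of each clone on mean level gave 371 higher and 202 lower.

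Direction differed in count by kind of transcript and by level, with no test made. Of 12985 protein-coding genes, 1545 lay beyond the range on the low side of BDD and 1169 on the high side. Antisense genes went the other way, with 116 higher and 37 lower of 1003, as did lincRNAs, with 81 higher and 31 lower of 800. Among genes averaging over 6 log2 CPM, 21.7% lay beyond the range on the low side and 9.65% on the high side. Among those between 1 and 4 the shares were 6.09% and 10.1%. The part of level in the split by transcript kind was not tested. Whether counting used strand is not given in the sources used here, so antisense reads and those of the overlapping gene may not be told apart.

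Immediate early transcription factors were 5 of the 12 widest gaps on the high side off chromosome 7: FOSB, EGR3, EGR2, EGR1 and FOS. FOSB (ENSG00000125740, chromosome 19, 45467995 to 45475179 on GRCh38, plus strand) had the largest gap of any called gene that averaged at least 3 log2 CPM. The 12 BDD libraries ran from 8.63 through a median of 9.17 to 9.61, the HEK 28 libraries stood at 4.57 and 4.70, and the 8 FL libraries ran from 4.27 through 5.06 to 5.74. Every BDD library was thus at least 3.93 above both HEK 28 libraries, and the HEK 28 libraries lay among the FL libraries. The BDD mean was 9.12 ± 0.23 (SD, n = 6 clones), 22.4-fold above HEK 28 (difference 4.48, SE 0.30, limma adjusted p = 2.64e-06).

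EGR1 (ENSG00000120738, chromosome 5, 138465490 to 138469315, plus strand) had the highest BDD level of this group. BDD libraries ran from 10.16 through 10.88 to 11.09, HEK 28 stood at 7.71 and 7.63, and FL ran from 7.96 through 8.63 to 8.79. Here the HEK 28 libraries lay below every FL library, although the HEK 28 minus FL difference of -0.84 did not pass (limma adjusted p = 0.82). BDD exceeded HEK 28 by 3.07 (SE 0.29, 8.42-fold, limma adjusted p = 0.000111).

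FOS, the partner of JUN in AP-1, varied more among BDD libraries. They ran from 5.50 through 6.80 to 8.36, against 3.37 and 3.68 in HEK 28 and 3.28 to 5.03 in FL. The groups BDD and HEK 28 did not overlap, with a gap of 1.82 and a difference of 3.38 (SE 0.50, limma adjusted p = 0.00581). JUND, the most stable JUN family member in many cells, ran from 7.67 through 8.43 to 8.65 in BDD and stood at 6.52 and 6.64 in HEK 28, with FL at 6.55 to 7.04. Its difference was 1.76 (SE 0.21, limma adjusted p = 0.00103).

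The other early growth response factors were low or nearly silent in HEK 28. EGR3 ran from 4.03 through 4.63 to 4.97 in BDD, stood at 0.98 and 0.53 in HEK 28, and ran from 1.24 to 2.37 in FL. The difference was 3.81 (SE 0.30, limma adjusted p = 1.60e-05), and all 3 groups stood apart in value. EGR2, a zinc finger factor best known from myelinating Schwann cells, had 722 reads over the 12 BDD libraries and 3 over the HEK 28 libraries. That is a ratio of read shares of 43.2, with an exact 95% interval of 14.7 to 210 that covers counting error only, and its limma adjusted p was 0.00355.

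Of the 24 listed immediate early genes, 10 were called higher than HEK 28 and none lower, beside 2.46% and 2.29% of all genes. On this list 14 had both HEK 28 libraries below the whole BDD range, beside 9.29% of all genes. The median difference over the list was 1.21 (0.695 to 1.48 over the 6 clones), where the median of all genes was 0.000633. The count of calls was 10 or 11 when any 1 clone or HEK 28 library was left out, and 10 without BDD clones 2 and 12. Against the FL clones 18 members were higher and 2 lower, beside 15.8% and 16.3% of all genes, with a median of 1.18. All 14 members that lay beyond the HEK 28 libraries were also called higher than FL. The 4 remaining called members, singled out after their values were seen, were NR4A3 at 2.74, ATF3 at 1.71, IER2 at 1.45 and JUN at 1.07 (limma adjusted p 0.00332, 0.00817, 0.0107 and 0.0127).

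FOSL1, EGR4, NR4A1 and NR4A2 also lay wholly above HEK 28, by 0.89, 1.75, 1.74 and 0.92, and did not pass the test. The other 10 members did not lie beyond the range. SRF, which drives CArG box genes, differed by -0.31 (limma adjusted p = 0.296), and IER3, an early gene tied to survival signals, by 0.16. MYC differed by -0.74 and did not pass, with BDD libraries from 2.36 to 6.50 around HEK 28 at 5.68 and 5.90. KLF4 was 1.34 higher than HEK 28 and 0.14 higher than FL, and neither difference passed.

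**Figure D1:**
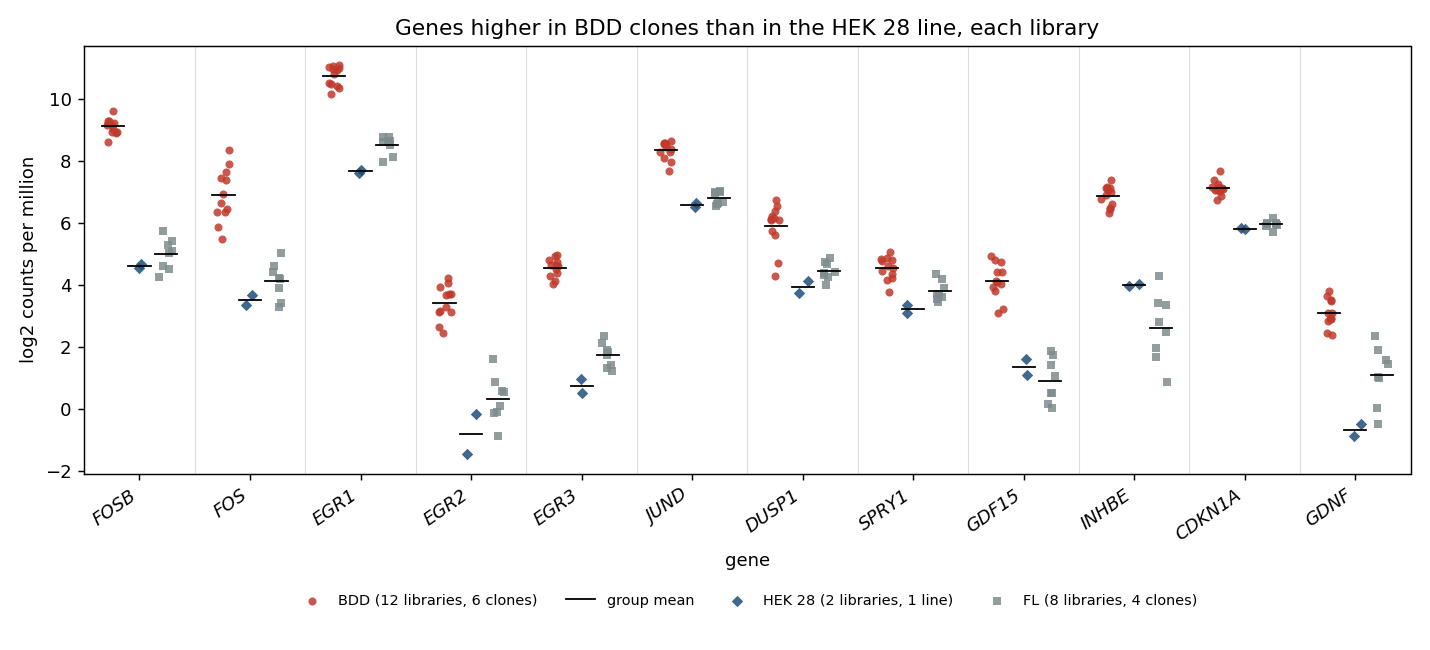
Levels (log2 CPM, vertical axis) of 12 genes in each library: BDD (circles), HEK 28 (diamonds) and FL (squares), with a bar at each group mean over libraries. For every gene the HEK 28 diamonds lie below all 12 BDD circles; FOSB shows the widest gap, 3.93.

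The feedback inhibitors of ERK signalling, which immediate early signalling induces, had a smaller median. Of 14 measured, 2 were called higher than HEK 28 and none lower (2.46% and 2.29% of all genes). Wholly above HEK 28 lay 4 of them (9.29% of all genes), and the median difference was 0.54. DUSP1, a phosphatase that switches off MAP kinases, ran from 4.29 through 6.12 to 6.76 in BDD against 4.14 and 3.75 in HEK 28. Its gap was only 0.15, with a difference of 1.95 (SE 0.38, limma adjusted p = 0.014). SPRY1, a Sprouty inhibitor of receptor signalling, was 1.32 higher (SE 0.34, limma adjusted p = 0.0412). The call of SPRY1 was lost in 9 of 21 alternatives, among them leaving out any of BDD clones 2, 7, 12 or 13 or FL clones 4, 9 or 10, with adjusted p up to 0.0761. Without BDD clones 2 and 12, 1 member of the list was called, and without HEK 28 library a, 3 were. DUSP6, SPRY2 and SPRED1, also feedback targets, differed by 0.55, -0.09 and -0.01, and none passed.

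Secreted factors and stress genes formed the next group. INHBE, an activin subunit that the stress factor ATF4 induces, ran from 6.33 through 6.96 to 7.38 in BDD, stood at 3.99 and 4.03 in HEK 28, and ran from 0.89 to 4.31 in FL. The gap was 2.29 and the difference 2.86 (SE 0.57, limma adjusted p = 0.0151). GDF15, a stress cytokine, ran from 3.11 through 4.12 to 4.93 in BDD and stood at 1.10 and 1.62 in HEK 28, a difference of 2.78 (SE 0.57, limma adjusted p = 0.0171). Both kept clear of the BDD range in HEK 28 and in FL.

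GDNF, a growth factor for neurons and the ureteric bud, had 560 reads in BDD and 3 in HEK 28, a ratio of read shares of 33.5 (exact 95% interval 11.4 to 163, counting error only; limma adjusted p = 0.00245). TACR2, the receptor for neurokinin A, ran from 3.78 to 5.28 in BDD against 1.10 and 1.44 in HEK 28, a difference of 3.05 (limma adjusted p = 0.00855). Noncoding RNAs filled the rest of the top 12. MT-TL1, a mitochondrial leucine tRNA, differed by 2.84 and LINC01362 by 4.23, although the HEK 28 libraries held only 0 and 5 reads of the latter. SNORD3A, a small nucleolar RNA with near-identical copies, had 786 reads in BDD and 3 in HEK 28 (ratio 47.0, exact 95% interval 16.0 to 228, counting error only). The last, AC004449.1, differed by 2.88.

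Of 30 measured genes of the integrated stress response, the program of the kinase PERK and the factor ATF4, 3 were called higher than HEK 28 and none lower, 6 lay wholly above and 1 wholly below. The median was 0.22 against HEK 28 and 0.48 against FL, where 12 were called higher and 1 lower. Over all genes, 2.46% were called higher and 2.29% lower than HEK 28, 9.29% lay wholly above and 10.5% wholly below. Against FL the shares of all genes were 15.8% higher and 16.3% lower. The third called member was PPP1R15A, which recruits the phosphatase that ends the response, at 1.13 (SE 0.31, limma adjusted p = 0.0487). Its call was lost in 11 of 21 alternatives (adjusted p up to 0.0822), among them leaving out HEK 28 library b, any BDD clone but 13, or any FL clone but 7. Without BDD clones 2 and 12, 2 members of the list were called. Some ATF4 targets, singled out after their values were seen, were called against FL and not against HEK 28. CHAC1, a glutathione-degrading enzyme, was 1.71 above FL and 0.19 above HEK 28, and TRIB3, a pseudokinase, 1.15 and 0.29. ATF4 itself differed by 0.03.

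Of 25 measured genes on the list of p53 targets, 3 were called higher in BDD and 1 lower (2.46% and 2.29% of all genes). CDKN1A, the inhibitor of cyclin-dependent kinases, ran from 6.74 through 7.12 to 7.69 in BDD and stood at 5.84 and 5.81 in HEK 28, with FL at 5.73 to 6.17. It was 1.31 higher (SE 0.19, limma adjusted p = 0.00581). ZMAT3, an RNA-binding tumour suppressor, was 1.14 higher, and GDF15 is also on this list. MDM2, a ubiquitin ligase on the list, differed by -0.25 and did not pass. Of 8 NF-kappa-B genes 1 was called higher (2.46% of all genes), RELB, at 1.45 (limma adjusted p = 0.0341). That call was lost without BDD clone 7 and without BDD clones 2 and 12 (adjusted p up to 0.0546).

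Among interferon-stimulated genes the HEK 28 and FL references gave different values. Of 15 measured, 1 was called higher than HEK 28, the ubiquitin-like ISG15 at 1.07 (SE 0.25, limma adjusted p = 0.027), and 8 were called higher than FL. Beside these, 2.46% of all genes were called higher than HEK 28 and 15.8% higher than FL. The list medians were 0.22 and 0.65. BST2, a membrane tether for viruses, ran from 2.42 through 3.75 to 4.68 in BDD with HEK 28 inside that range at 2.68 and 2.74, and FL below it at 0.60 to 1.98. Its difference was 0.99 from HEK 28 (limma adjusted p = 0.333) and 2.48 from FL. MX1 and IFI27 differed by 0.02 and -0.02 from HEK 28 and by 1.34 and 0.96 from FL. The HEK 28 minus FL differences themselves did not pass for any gene.

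On the lower side the widest gaps mixed genes shared with FL and genes high in HEK 28 alone. AKAP6, an anchor for protein kinase A, ran from 1.15 through 1.78 to 2.55 in BDD and stood at 6.70 in HEK 28 library a and 4.62 in library b. FL was split, with 7b at 0.39 and 9b at 1.52 and the other 6 FL libraries at 6.47 to 7.97. The difference from HEK 28 was -3.90 (SE 0.92, limma adjusted p = 0.0295), and it did not pass without HEK 28 library a or without BDD clones 2 and 12 (adjusted p up to 0.0729).

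NALCN, a sodium leak channel, stood at 4.13 and 3.70 in HEK 28, against 0.35 through 1.03 to 2.05 in BDD and 0.13 through 0.93 to 1.99 in FL. BDD and FL overlapped throughout, with a BDD minus FL difference of -0.0033, while BDD minus HEK 28 was -2.93 (SE 0.46, limma adjusted p = 0.00681). DHRS2, a mitochondrial and nuclear reductase, stood at 6.13 and 6.09 in HEK 28, 2.89 to 4.60 in BDD and 3.66 to 5.01 in FL. It was lower, at -2.29 (SE 0.51, limma adjusted p = 0.0236). The transcript AC015522.1 had the same order, with HEK 28 at 3.19 and 3.46 and the BDD and FL libraries at or below 1.94. These 3 genes separated HEK 28 from both sets of clones in value, though HEK 28 minus FL did not pass (limma adjusted p 0.156, 0.779 and 0.589).

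NEFM, the medium neurofilament chain and a known feature of HEK293 cells, was lower in BDD than in both references. BDD ran from 9.49 through 10.31 to 10.71, HEK 28 stood at 12.11 and 11.95, and FL was tight at 11.98 to 12.12. The difference was -1.77 (SE 0.32, limma adjusted p = 0.00948). NEFL, the light chain, was -0.89 (limma adjusted p = 0.0426), a call lost in 7 of 21 alternatives, among them leaving out BDD clones 1 or 7 or FL clones 4, 9 or 10 (adjusted p up to 0.0841). Other neuronal genes had values of the other sign: MAP2, a microtubule protein, and INA, a neurofilament subunit, were 1.08 and 1.65 above HEK 28, and neither passed.

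The rest of the wide gaps on the lower side came from genes of varied roles. TSR1, a ribosome assembly factor, ran from 5.54 through 5.88 to 6.00 in BDD, stood at 7.27 and 7.20 in HEK 28, and ran from 6.47 to 6.91 in FL. It had the smallest adjusted p on this side among the named genes, 0.00137 by limma, with a difference of -1.40 (SE 0.17). SLIRP, which stabilises mitochondrial messenger RNA, differed by -1.57, MTCH2, a mitochondrial outer membrane insertase, by -1.38, and DNPH1, a nucleotide hydrolase, by -1.68. GTF2H5, the smallest subunit of TFIIH, differed by -1.60 and TKFC, a dihydroxyacetone kinase, by -1.94. PFN1, the actin-binding profilin, differed by -1.88, and its BDD libraries ran from 2.93 to 6.96. ERMARD, a gene tied to ER membranes, differed by -1.60 (limma adjusted p = 0.00877). ZNF185, a LIM domain protein, differed by -1.83 with a gap of 1.36 (limma adjusted p = 0.0426). The call of ZNF185 was lost in 8 of 21 alternatives, among them leaving out BDD clones 1, 7 or 12 or FL clones 4, 9 or 10 (adjusted p up to 0.0619).

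Of 34 measured S and G2/M genes 7 were called lower and none higher (2.29% and 2.46% of all genes), and 18 lay wholly below HEK 28. That range share was 10.5% over all genes and 21.7% over genes averaging over 6 log2 CPM. The list's median level was 6.32 in BDD and 6.97 in HEK 28. Its median difference was -0.52 (-0.632 to -0.400 over clones). CCNB1, the mitotic cyclin B1, ran from 4.70 through 5.73 to 6.31 in BDD and stood at 7.24 and 7.25 in HEK 28, with FL at 6.83 to 7.16. It was lower, at -1.63 (SE 0.25, limma adjusted p = 0.00681). The mitotic kinases PLK1 and AURKA were lower, at -1.26 and -1.20 (limma adjusted p 0.0099 and 0.01), and the kinetochore motor CENPE by -0.86. TOP2A and MKI67, also proliferation markers, differed by -0.30 and -0.48 without passing, and MCM7, on chromosome 7, by 0.42. Calls on the list were 6 to 10 with any 1 clone or HEK 28 library left out, and 6 without BDD clones 2 and 12. Culture density was labelled alike for all clones, and its part in this list was not tested.

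Respiration showed the lowest list median against HEK 28, close to that of the cholesterol synthesis list (-0.69). Without BDD clone 1, BDD clone 13 or HEK 28 library a the cholesterol synthesis list was lower, as it was against FL (-0.92). Of 39 nuclear-encoded subunits of oxidative phosphorylation, 10 were called lower and none higher (2.29% and 2.46% of all genes), and 25 lay wholly below HEK 28. Wholly below lay 10.5% of all genes and 21.7% of genes averaging over 6 log2 CPM. The list's median level was 7.29 in BDD and 7.88 in HEK 28. The median difference was -0.70 against HEK 28 and -0.67 against FL, where 31 were called lower (16.3% of all genes). ATP5MC1, part of the rotor ring of ATP synthase, ran from 6.21 through 6.51 to 7.04 in BDD, stood at 7.65 and 7.66 in HEK 28 and ran from 7.32 to 8.07 in FL. It was lower, at -1.11 (SE 0.19, limma adjusted p = 0.00896), and BDD overlapped neither reference. ATP5PF, in the stalk of the same enzyme, was lower, at -0.93, and NDUFA1, an accessory subunit of complex I, at -0.91 (limma adjusted p 0.0104 and 0.0177). Calls on the list were 6 without BDD clone 1 and 12 without BDD clone 27 or HEK 28 library a, the ends of the leave-out range, and without clones 2 and 12 it had 9.

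Of 15 protein and rRNA genes of the mitochondrial genome 1 was called lower (2.29% of all genes), with a list median of -0.39. The tRNA gene MT-TL1, outside that list, was higher. The called gene was MT-ND6, the complex I subunit on the light strand, at -1.48 (SE 0.39, limma adjusted p = 0.0428). That call was lost in 8 of 21 alternatives (adjusted p up to 0.0789), among them leaving out BDD clones 2, 7 or 13, FL clones 4 or 9, or HEK 28 library a. The share of all reads from the mitochondrial genome was 7.87% and 7.98% in HEK 28, inside the 5.96% to 8.02% of the BDD libraries and below the 8.50% to 9.51% of FL. HEK 28 and BDD therefore overlapped on this measure where FL did not.

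Lipid synthesis, glycolysis and antioxidant enzymes followed. Of 30 cholesterol synthesis and SREBP target genes 2 were called lower and none higher, and 16 lay wholly below HEK 28. The median was -0.69 (against FL, 19 called lower and -0.92). Over all genes, 2.29% were called lower, 10.5% lay wholly below HEK 28 and 16.3% were called lower than FL. The list had 1 call without BDD clones 1, 7 or 13 or FL clone 9, and 4 without HEK 28 library a or FL clone 7. SCD, the stearoyl desaturase, was -0.96 (SE 0.25, limma adjusted p = 0.0409), a call lost in 6 of 21 alternatives, including leaving out BDD clones 1, 7 or 13 or FL clone 9 (adjusted p up to 0.0645). SREBF2, the regulator of the list, differed by -0.02. Of 19 glycolytic genes 4 were called lower (2.29% of all genes). LDHA, lactate dehydrogenase A, ran from 5.18 through 6.64 to 7.35 in BDD against 8.05 and 8.22 in HEK 28 (difference -1.56, SE 0.28, limma adjusted p = 0.0104). ALDOA, an aldolase, differed by 0.05 from HEK 28 and by -0.88 from FL.

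Of 23 NRF2 and antioxidant genes 3 were called lower (2.29% of all genes). TALDO1, the pentose phosphate transaldolase, differed by -1.33, and SOD1, the cytosolic superoxide dismutase, by -1.09 (limma adjusted p 0.00681 and 0.0089). The glutathione transferase GSTP1 differed by -1.15 (limma adjusted p = 0.0314, 0.0531 without BDD clone 7). Cytosolic ribosomal proteins stood on the other side with small values. None of 48 was called, 8 lay wholly above HEK 28 (9.29% of all genes), and the median was 0.12.

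The secretory pathway, through which factor VIII leaves the cell, gave few calls against HEK 28. F8 itself (ENSG00000185010, chromosome X, 154835788 to 155026940, minus strand) may be read from the transgene, the native gene or both, and no count separates them. It stood at 8.94 and 8.85 in HEK 28, 6.94 through 7.57 to 8.05 in FL, and 1.98 through 5.86 to 7.80 in BDD. Both HEK 28 libraries lay above all others, so the label of a line carrying factor VIII was not contradicted. The difference of -3.45 did not pass (SE 1.38, limma adjusted p = 0.159), with BDD clones spread from 2.10 in clone 13 to 7.74 in clone 1. CPM is not scaled for transcript length, and the BDD form lacks the B domain, so F8 values of BDD and full-length forms are not like for like. Clone 13, the lowest in F8, was also the lowest of the 6 BDD clones in FOSB (8.76), EGR1 (10.30), FOS (5.68), JUND (8.07) and EGR2 (2.79), though not in EGR3, and remained above HEK 28 in each. Clone 7, the next lowest in F8 (3.75), was the highest of the 6 in EGR1 (11.03) and the next lowest in FOS (6.69). Clone 27, at 5.45 in F8, was the highest in FOS (7.65). Relations to F8 across 6 clones were not tested.

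The cargo receptor and the main ER chaperone did not pass the test, and HEK 28 lay inside the BDD range except for LMAN1 in library a, at 8.42 against a highest BDD library of 8.39. LMAN1 differed by -0.24, MCFD2 by -0.35 and HSPA5, the chaperone BiP, by -0.08 (limma adjusted p 0.47, 0.436 and 0.869). Of 22 unfolded protein response genes limma called none against HEK 28, and 2 were higher and 8 lower than FL. Over all genes the same limma fit gave 749 calls (4.74%), and 3456 genes at an unadjusted p under 0.05. Against FL, 15.8% of all genes were higher and 16.3% lower. SEL1L, an adaptor of ER-associated degradation, was 0.97 higher (limma adjusted p = 0.0536).

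Of 29 N-glycosylation genes 1 was called lower (2.29% of all genes) and 8 lay wholly below HEK 28 (10.5% of all genes), all 8 also lower than FL, with a median of -0.39. Against FL, 17 were called lower and none higher, beside 16.3% and 15.8% of all genes, with a median of -0.47. With 1 clone or HEK 28 library left out the calls against HEK 28 on this list ran from 0 to 3, the most without FL clone 7. The called gene was DDOST, a subunit of the oligosaccharyltransferase, at -0.995 (SE 0.27, limma adjusted p = 0.047). It was lost in 11 of 21 alternatives (adjusted p up to 0.0985), among them leaving out BDD clones 1, 2, 7 or 13 or FL clones 4, 9 or 10. The ER-associated degradation gene DERL3 differed by -2.07 (limma adjusted p = 0.036), a call lost without BDD clone 2 or 7 (adjusted p up to 0.066). The collagen prolyl isomerase FKBP10 differed by -1.10 (0.0268), a call lost without HEK 28 library b (adjusted p up to 0.0584). Of 42 ER to Golgi transport genes none was called by limma, where 13 were lower and 1 higher than FL, and 7 lay wholly below HEK 28. Of all genes 4.74% were called against HEK 28 and 10.5% lay wholly below it. Of 29 ER chaperone and oxidoreductase genes, 11 were lower and 3 higher than FL, and 1 was called lower than HEK 28. Against FL, 16.3% of all genes were lower and 15.8% higher.

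Proteasome subunits had a median of -0.50, with 3 of 29 called lower (2.29% of all genes) and 11 wholly below HEK 28 (10.5%). The list's median level was 6.84 in BDD and 7.48 in HEK 28. Among all genes averaging over 6 log2 CPM, 21.7% lay wholly below HEK 28. Of the called subunits PSMB1 and PSMA4 differed by -0.76 and -0.80, calls lost without BDD clones 1 or 7 or FL clone 9 (adjusted p up to 0.0608), and PSMD3 rested on HEK 28 library b, at 8.19 against 7.36 in library a (adjusted p = 0.146 without b). Without BDD clone 7 or FL clone 9, 1 subunit was called, and without BDD clone 27, 8 were. Without HEK 28 library a, 5 were called.

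**Figure D2:**
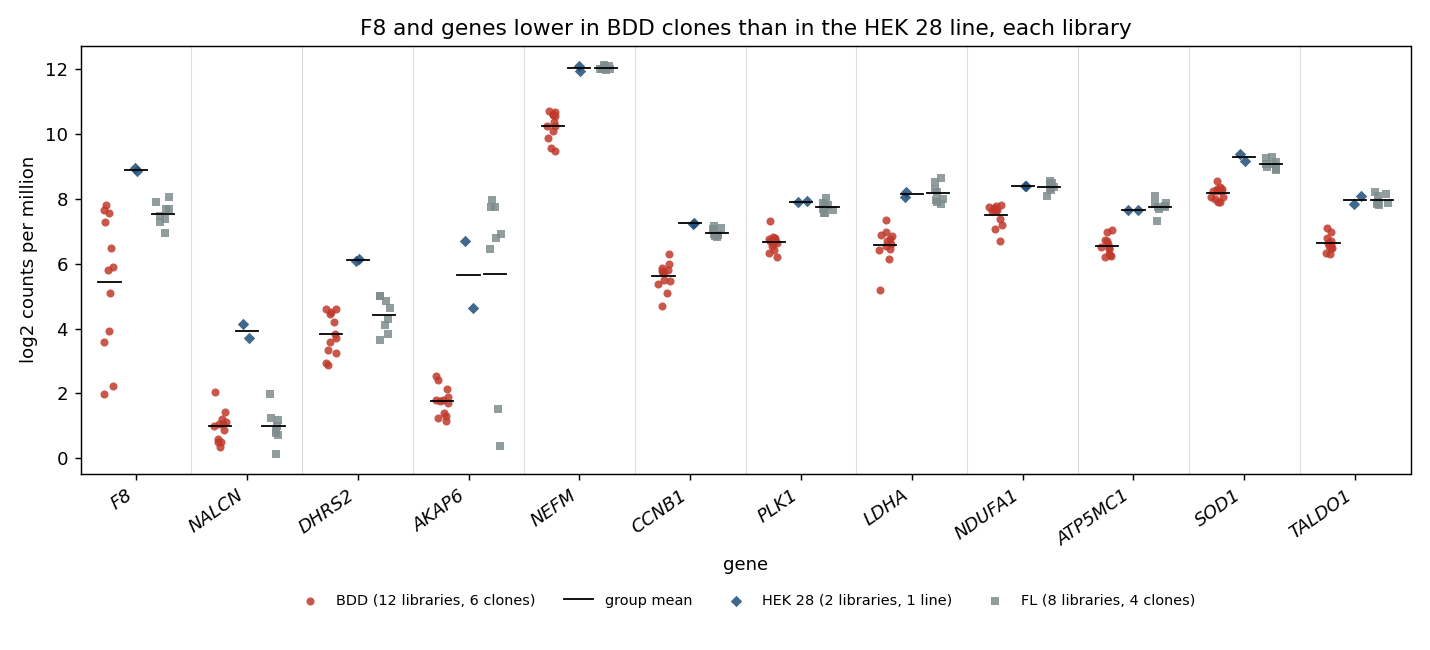
Levels (log2 CPM, vertical axis) of F8 and 11 genes lower in BDD than in HEK 28, in each library, with a bar at each group mean over libraries. NALCN and DHRS2 are high in the HEK 28 diamonds only, NEFM and the cell division and respiration genes are high in HEK 28 and FL alike, and F8 is scattered among the BDD circles from 1.98 to 7.80.

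Set against the FL clones, the survival of differences was counted off chromosome 7. BDD and FL clones differed at 5074 genes (32.1%), 2501 higher and 2573 lower in BDD. All 8 FL libraries lay beyond the BDD range at 1076 genes (6.81%). Off chromosome 7, 8.63% of all genes had both HEK 28 libraries below the BDD range and 11.0% had both above it. There, 887 of 2399 genes called higher than FL (37.0%) had both HEK 28 libraries below the range. Of 2439 called lower, 1204 (49.4%) had both above it. The stricter count, which adds a limma call against HEK 28, was 283 and 323. Both HEK 28 libraries lay inside the BDD range for 882 and 677 genes, and 1 library lay inside for 629 and 557. The comparisons share the BDD libraries, which by itself makes such counts high, so no test of the overlap was made. Without BDD clones 2 and 12 the survivors off chromosome 7 were 1093 higher and 1441 lower.

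Genes whose 8 FL libraries all lay beyond the BDD range were counted apart. Of 424 such genes higher in BDD off chromosome 7, 324 (76.4%) also had both HEK 28 libraries below the range. Of 597 lower in BDD, 514 (86.1%) had both above it. Over all genes off chromosome 7 these shares were 8.63% and 11.0%. Both HEK 28 libraries fell inside the BDD range for only 38 of the 424 and 23 of the 597 genes. No gene was called in both comparisons with opposite signs. Of genes beyond the HEK 28 libraries, 409 of 1297 higher and 441 of 1646 lower in BDD were not called against FL. HEK 28 minus FL gave no call at an adjusted p under 0.05 by limma, with 810 genes at an unadjusted p under 0.05. The standard error against HEK 28 was 1.67 times that against FL (median), so numbers of calls in the 2 comparisons cannot be compared directly.

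The largest increases over FL with HEK 28 inside the BDD range, beside BST2, were in 5 genes of varied roles. FUT1, the enzyme of the H blood group antigen, ran from 3.86 through 4.80 to 5.23 in BDD, with HEK 28 inside at 3.94 and 4.14 and FL below at 1.76 to 3.03. DDR2, a collagen receptor kinase, ran from 2.36 to 4.71 in BDD with HEK 28 at 3.85 and 3.90 and FL at 1.15 to 1.93. CLSTN2, a synaptic cadherin, was 1.87 above FL and 0.96 above HEK 28, and UNC13D, a granule release factor, 1.80 and 0.64. The noncoding AC012409.2 was 1.78 above FL and 0.60 above HEK 28.

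In the other direction HEK 28 also sided with BDD for a few genes. COPS9, a small COP9 signalosome subunit, ran from 5.72 to 6.41 in BDD with HEK 28 at 6.25 and 6.28 and FL at 6.76 to 7.32. KCTD12, a GABA-B receptor subunit, ran from 3.21 to 4.61 in BDD with HEK 28 at 4.56 and 4.57, near the top of that range, and FL at 4.64 to 5.42. SIAE, a sialic acid esterase, and SKIDA1, a gene of uncertain role, had BDD minus FL values of -1.45 and -1.72 and differed from HEK 28 by -0.35 and -0.29. On the far side of BDD from FL lay MYEF2, a repressor of myelin genes, at 4.44 and 4.70 in HEK 28, 2.50 to 4.27 in BDD and 1.74 to 3.24 in FL. LINC01619 had the reverse order, with a gap between BDD and HEK 28 of only 0.0080. MYEF2 and LINC01619 did not pass against HEK 28 (limma adjusted p 0.255 and 0.262).

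**Figure D3:**
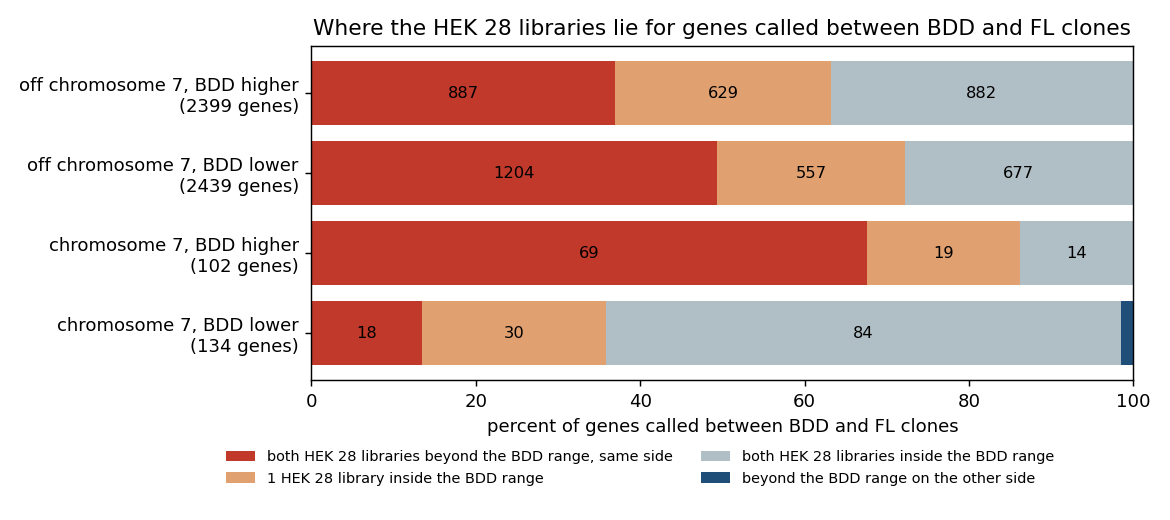
Percent (horizontal axis) of genes called between BDD and FL clones by where the HEK 28 libraries lie, off chromosome 7 and on it and by direction, with the number of genes in each part. Off chromosome 7, 887 and 1204 genes have both HEK 28 libraries beyond the BDD range on the FL side; on chromosome 7 the split is 69 of 102 for BDD higher and 18 of 134 for BDD lower.

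Chromosome 7 was set apart by the rule that fixed this comparison, and HEK 28 read lower in median in each of 8 blocks along it. Of its 766 genes 171 (22.3%) had both HEK 28 libraries below the BDD range and 20 (2.61%) above it, and limma called 62 (8.09%) higher and 5 lower in BDD. The median difference was 0.35 (1.28-fold), between 0.32 and 0.39 in each of the 6 BDD clones, and 74.5% of the genes were positive. HEK 28 minus FL gave a median of -0.39 and BDD minus FL -0.0037, so the line titled HEK 28 stood apart from both sets of clones. Chromosome 7 took 2.45% and 2.44% of reads in HEK 28, 2.85% to 3.27% in BDD and 3.06% to 3.46% in FL. In 8 consecutive blocks of 95 or 96 genes the median ran from 0.225 at both ends to 0.531 in the fourth block, and it was positive in all 8. DNA copy number was not measured, and its part in these values was not tested.

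Survival on chromosome 7 was lopsided in the same sense. Of its 766 genes, 22.3% had both HEK 28 libraries below the BDD range and 2.61% had both above it. Of 102 genes called higher than FL, 69 (67.6%) survived against HEK 28 and 33 by the stricter count. Of 134 called lower than FL, 18 (13.4%) survived, 4 by the stricter count, and 84 had both HEK 28 libraries inside the BDD range. HOXA11, a limb and kidney homeobox factor, and FSCN1, an actin bundler, were of the latter kind: their BDD minus FL values were -1.31 and -0.96, and their BDD minus HEK 28 values -0.33 and -0.49. SUGCT and SLC37A3 were lower than FL and lay above HEK 28 in value, by gaps of only 0.022 and 0.030. Their differences from HEK 28 were 0.88 and 0.23 and did not pass (limma adjusted p 0.103 and 0.468). Of the 171 genes above HEK 28, 100 were not called against FL.

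Among the named genes of this chromosome, AP4M1, a subunit of the AP-4 sorting adaptor (chromosome 7, 100101549 to 100110345, plus strand), ran from 5.03 through 5.93 to 7.03 in BDD, stood at 3.80 and 3.79 in HEK 28 and ran from 3.45 to 4.73 in FL. Its difference of 2.14 (SE 0.35, limma adjusted p = 0.00815) was thus far above the chromosome's median. TRIM56, a ubiquitin ligase of antiviral signalling, differed by 1.45 from HEK 28 and 1.18 from FL, and WIPF3, an actin regulator, by 1.63 and 0.81. ZNF467 and the pseudogene IRS3P differed by 2.61 and 1.97; the call of IRS3P was lost without BDD clone 1 or 7 (adjusted p up to 0.0585).

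Genes of chromosome 7 that were lower in BDD went against the chromosome. INSIG1, the sterol-sensing brake on SREBP, ran from 3.47 through 4.02 to 4.70 in BDD and stood at 5.59 and 5.33 in HEK 28 (difference -1.41, SE 0.31, limma adjusted p = 0.0217), with FL at 5.28 to 6.73. SSBP1, which coats single-stranded mitochondrial DNA, differed by -1.23 and NUDT1, which cleans oxidised nucleotides from the pool, by -0.93. The call of NUDT1 was lost without BDD clone 1 or 7 or FL clone 9 (adjusted p up to 0.0627). EFCAB10 stood at 4.28 and 4.78 in HEK 28, above BDD at 0.65 to 3.53 and FL at 0.69 to 3.97, though libraries a and b of FL clones 9 and 10 lay far apart (3.92 and 0.69, 1.35 and 3.97).

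On no other nuclear chromosome did all 6 BDD clones differ from HEK 28 in one direction by as much as the 0.32 seen here. Chromosome 11 had a median of -0.23, but it came from BDD clones 7 and 13 at -0.52 and -0.61, while the other 4 BDD clones stood between -0.11 and -0.06 and HEK 28 minus FL was 0.0073. On chromosome 15 the same clones 7 and 13 stood at 0.16 and 0.18, while the other 4 BDD clones ran from -0.28 to -0.19 and the FL clones from -0.31 to -0.28. Of the chromosome 11 genes 3.53% lay beyond the range with BDD higher and 14.3% with BDD lower. Of the chromosome 15 genes the shares were 3.70% and 12.4%, beside 9.29% and 10.5% of all genes. Chromosome 12 was 0.13 above HEK 28 in BDD. In bulk RNA, fewer cells expressing a gene and less RNA per cell cannot be told apart.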

How the data were processed

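Per the labels' protocols, libraries of total RNA were read on an Illumina HiSeq. Per the submitters' processing notes, Bowtie, TopHat2, cutadapt and FastQC were used with hg38. No counting tool, strand setting, annotation or scaling is given in the sources used here. The authors deposited log2 CPM of 15797 genes for each library. The floor of -1.45 and the steps above it gave back whole reads for 100% of values (tolerance 0.01 read), which showed a prior of about 2 reads at the mean library size of 5448078.

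Groups came from titles and genotype labels. Libraries a and b were averaged per clone, since they share the clone, which is the unit. They differed by more than counting noise (5.50 to 42.4 chi-square units per gene), so none was treated as a copy. The 11 clones (6 BDD, 4 FL, 1 HEK 28) were fitted in R 4.3.3 by limma 3.58.1, with an intensity trend in eBayes, Benjamini-Hochberg adjustment over all 15797 genes and a threshold of 0.05. A filter of 1 CPM in 1 clone removed no gene. Separate cultures or transfections are not stated, so p-values measure the spread between these clones, which may be technical. An exact permutation over 7 clones cannot go below p = 0.143 and was not used. The range rule and its gaps used single libraries, and the fit was tested on simulated reads. Positions and the names of 1272 genes without a symbol came from GENCODE 29 (GRCh38), promoters from RefSeq (GRCh38.p14). Python 3.11.15 ran the tables, with pandas 2.3.3, numpy 2.4.6 and scipy 1.17.1.

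The genes and the 27 lists were chosen with earlier results of these data known. Named genes are F8, FOSB, EGR1, LMAN1, MCFD2 and HSPA5, called genes with the widest gaps on and off chromosome 7 that averaged at least 3 log2 CPM in the higher group, the largest changes from FL that HEK 28 did not share, and up to 4 members of each list. Other genes were singled out after their values were seen. Alternatives varied the scaling, filter, pseudocount, replicate unit, gap, threshold, trend and clones included. Some results are not reported here.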

Additional observations from a re-analysis of the deposited data

Results flagged for a closer look

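Among 96 named genes, 4 had a BDD clone far from the other 5 for the range of the group. Chance alone gives about 1 such case in 20 groups, so 4 of 96 is no more than chance would give. ATP5MC1 stood at 6.23 in BDD clone 27, the lowest, with the next clone at 6.56. PGK1 stood at 7.07 in BDD clone 12, the highest, with the next at 6.68. BDD clone 2 was the highest for RPL10, a ribosomal protein, at 11.39 with the next clone at 11.05, and for GSTP1 at 9.50 with the next at 9.13. Its library b was the high one of the pair for both, at 11.68 against 11.10 for RPL10 and 10.01 against 9.00 for GSTP1. BDD clones 2 and 12 are also the 2 whose libraries a and b correlated least.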

How the results depend on the processing

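Of 73 called named genes, 49 kept direction and call under the alternatives of scaling, filter, pseudocount, samples fitted, replicate unit and clones left out, and 24 lost the call under at least 1. Of the 73, 28 passed an adjusted p under 0.01, and 58 kept call and direction with the trend on level taken out. DDR2, not called, turned from -0.23 to 0.0034 without BDD clone 1, and lay between -0.39 and 0.0034 over the clones left out. The total of 749 calls (388 higher, 361 lower) was 454 (154 lower) when only BDD and HEK 28 clones were fitted, and 85 (55 higher, 30 lower) at an adjusted p under 0.01. Lower calls were 233 with autosomal reads off chromosome 7 as library size, which also leaves out X and mitochondrial reads, and 202 with the trend on level taken out. With libraries as samples, which treats a and b of a clone as independent, calls were 2387 (1180 higher, 1207 lower) without a replicate block, and 2278 (1125 and 1153) with the letter as block. F8 was -3.45 in both, with adjusted p 0.0267 and 0.0311. The letters mark no stated batch, and libraries of different clones correlated by 0.00595 with the same letter and -0.00529 with different letters, so they share only a letter. Leaving out 1 clone or HEK 28 library gave 460 to 1105 calls, 251 to 601 higher and 209 to 512 lower. The same leave-outs gave 3279 to 4795 genes beyond the range (3134 in full): leaving out a BDD clone can only narrow the range, and leaving out a HEK 28 library asks only 1 library to lie beyond it. Off chromosome 7 they gave 1359 to 2121 higher (1297) and 1725 to 2404 lower (1646), survival of 1765 to 2699 (2091), 738 to 1198 higher and 1027 to 1501 lower, a chromosome 7 median of 0.334 to 0.359, and F8 of -3.91 to -2.78. Without BDD clones 2 and 12, an alternative chosen after seeing the data, 4554 genes were beyond the range, 1962 higher and 2334 lower off chromosome 7, with 2534 survivors. A gap of at least 0.5 left 614 genes beyond the range (344 higher and 221 lower off chromosome 7) and 472 survivors (292 and 180). A gap of at least 1 left 121 (91 and 20) and 96 (85 and 11). The chromosome 7 median was 0.399 with autosomal reads off chromosome 7 as library size and 0.322 for genes averaging at least 2 log2 CPM. The median of all genes moved by under 0.1 in both scalings. The cause of these shifts was not tested. HEK 28 is 1 line, and genes of few reads there have no usable fold.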
